A study of Mus musculus with 6 samples.

Results

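The transcripts described here belong to 10 genes of the ER stress response and the secretory chaperones, taken by name from a table of 54232 genes (28552 with any count). They are Atf4, Ddit3, Trib3, Xbp1, Hspa5, Hsp90b1, Calr, Canx, Pdia4 and Herpud1, and all 10 were found, counted in every library and tested. The libraries were made from primary uterine stromal cells of mice on day 4 (D4), 3 from WT and 3 from Pbrm1 cKO animals aged 8 to 12 weeks. The isolation protocol calls these mice pseudopregnant, whereas the time label of the samples names pregnancy, and the protocol is followed here. The Pbrm1 cKO mice were Pbrm1 fl/fl and carried PR-IRES-cre, a Cre recombinase expressed from the progesterone receptor locus and so active in progesterone receptor-expressing cells of the uterus, not in stroma alone. Controls are named WT in the labels and Pbrm1 fl/fl in the study's methods. Pbrm1 encodes a subunit of the SWI/SNF (PBAF) chromatin remodeler. Each preparation pooled 5 to 10 uterine horns, and the cells were plated for 4 h and given fresh medium for 2 h before RNA was taken, so every library holds cells from several horns after a short culture.

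The ER folds proteins that are to be secreted or placed in membranes. When unfolded proteins build up there, 3 sensors respond. PERK phosphorylates eIF2 and so favours translation of ATF4, IRE1 splices the Xbp1 transcript, and ATF6 is cut to release a transcription factor. ATF4 acts on genes of amino acid supply and on Ddit3 (CHOP) and Trib3, while spliced XBP1 and cleaved ATF6 act on chaperone genes. Stromal cells of the uterus secrete collagens and, at decidualization, many other proteins, and decidualizing cells are known for an expanded ER. The RNA measured here counts transcripts. It does not measure Xbp1 splicing, eIF2 phosphorylation, ATF6 cleavage or protein.

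Total counts ran from 13253575 to 18338667 per library. Pbrm1 itself had normalised counts of 1354, 1385 and 1677 in WT and 397, 459 and 451 in Pbrm1 cKO, where its mean was 29.6% of the WT mean. The second principal component set WT replicate 1 apart from the other libraries, and calls of the 10 genes that depend on a single library are given with and without it. The stromal markers were abundant in both groups, with a summed normalised count over 14 genes of 97960 to 117800 in WT and 85000 to 91460 in Pbrm1 cKO, and 6 of the 14 were lower and 1 higher. The summed count of the leukocyte list (15 of 16 genes with counts) was 4231 to 9236 in WT and 39410 to 41060 in Pbrm1 cKO, with Ms4a1 and Nkg7 at or near 0 in every library. The epithelial list of 18 genes summed to 2056 to 3748 and 4193 to 4371, with Foxa2 at or near 0, and the endothelial list of 12 genes to 1928 to 5490 and 1886 to 2074. WT replicate 1 held the lowest WT sum of these 3 lists. The other 2 WT libraries gave 9236 and 8891 for leukocytes, 3748 and 3524 for epithelium and 5490 and 4800 for endothelium, so that the endothelial groups overlap only through WT replicate 1. The smooth muscle list of 12 genes summed to 55430 to 59880 and 53490 to 55580, with Myocd, Casq2 and Pcp4 at or near 0. The part of these cells in the results below was not tested. In bulk RNA, fewer cells of a type cannot be told apart from less RNA per cell.

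The chaperone genes are known targets of sequence elements in their promoters, and these are shown first because they divide the 10 genes in a way that the counts can be set beside. The ER stress response element (ERSE) was searched as CCAAT and CCACG separated by 9 bases, ERSE-II as ATTGG and CCACG separated by 1 base, the unfolded protein response element (UPRE) as TGACGTGG, and the C/EBP-ATF response element (CARE) as TGATGNAA, each on both strands. Both ERSE forms contain CCACG, and no 2 matches overlapped in the windows of the 10 genes. The windows were the RefSeq promoters of GRCm38.p6, from 250 bases before to 50 after the annotated start, and all 10 genes had 1. The 250 bases before the start are printed for the 4 genes with ERSE letters and for the 1 with ERSE-II letters, 5′ to 3′ on the strand of the gene, with the matched letters in capitals. They lie at chr2:34771840-34772089 (plus strand, Hspa5), chr10:86705445-86705694 (minus, Hsp90b1), chr8:84846932-84847181 (minus, Calr), chr11:50325674-50325923 (minus, Canx) and chr8:94386179-94386428 (plus, Herpud1).
Hspa5: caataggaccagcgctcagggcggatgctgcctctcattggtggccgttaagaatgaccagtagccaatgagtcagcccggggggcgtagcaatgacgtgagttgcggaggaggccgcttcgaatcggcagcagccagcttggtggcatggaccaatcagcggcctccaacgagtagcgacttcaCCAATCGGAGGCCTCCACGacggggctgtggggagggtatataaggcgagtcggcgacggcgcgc
Hsp90b1: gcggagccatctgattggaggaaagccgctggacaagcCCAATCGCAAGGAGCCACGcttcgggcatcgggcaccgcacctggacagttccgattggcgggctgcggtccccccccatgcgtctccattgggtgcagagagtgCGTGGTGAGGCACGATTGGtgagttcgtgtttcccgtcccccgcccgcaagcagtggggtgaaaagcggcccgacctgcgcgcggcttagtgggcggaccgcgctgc
Calr: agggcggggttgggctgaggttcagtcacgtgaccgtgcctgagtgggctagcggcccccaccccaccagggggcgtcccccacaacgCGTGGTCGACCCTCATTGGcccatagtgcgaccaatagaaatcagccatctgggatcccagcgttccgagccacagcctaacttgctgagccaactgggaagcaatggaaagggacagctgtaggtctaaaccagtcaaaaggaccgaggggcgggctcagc
Canx: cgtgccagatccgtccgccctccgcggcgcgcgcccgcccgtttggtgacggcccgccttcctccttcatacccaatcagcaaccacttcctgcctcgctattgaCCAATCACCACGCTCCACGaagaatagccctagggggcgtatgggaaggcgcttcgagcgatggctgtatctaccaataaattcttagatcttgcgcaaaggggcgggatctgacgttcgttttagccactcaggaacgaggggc
Herpud1: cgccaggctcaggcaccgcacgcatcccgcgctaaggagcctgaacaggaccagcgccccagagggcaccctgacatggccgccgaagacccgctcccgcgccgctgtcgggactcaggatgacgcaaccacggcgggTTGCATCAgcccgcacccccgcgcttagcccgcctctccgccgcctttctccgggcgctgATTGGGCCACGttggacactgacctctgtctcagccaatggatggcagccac

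Positions are counted from the RefSeq start, which can differ from the edge of the counted gene whose coordinates are given below. ERSE letters began 65 bases before the start of Hspa5 and 145 before that of Canx, both on the strand of the gene. Those of Hspa5 (chr2:34772025-34772043) lie inside the counted gene. In Calr the ERSE letters began 162 bases before the start on the opposite strand. Hsp90b1 held 2 matches, beginning 212 bases before the start on its own strand and 107 before it on the opposite strand. Herpud1 held ERSE-II letters from 52 bases before the start and, on the opposite strand, CARE letters from 112 bases before it. Trib3 held CARE letters on the opposite strand just after its RefSeq start, and they read TTACATCA on the strand of the gene. They lie at chr2:152344039-152344046, just outside the counted gene. The end of the window was found in 0 transcripts of Trib3 and of Pdia4, so where these windows lie against the start is uncertain. Atf4, Ddit3, Xbp1 and Pdia4 held none of the 4 motifs in these letters, and UPRE letters were in none of the 10 windows. Of 32851 mouse promoter windows of the same length, 39 (0.119%) held ERSE, 12 (0.0365%) ERSE-II, 222 (0.676%) UPRE and 1304 (3.97%) CARE. A match is a description of letters, and a window without one can still bind the factor.

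Of the 10 genes, 6 had lower transcript levels in Pbrm1 cKO, 1 had a higher level and 3 did not pass the test (DESeq2, adjusted p under 0.05). The 6 were the lumenal chaperones Hspa5, Hsp90b1 and Calr, the disulfide isomerase Pdia4, the transcription factor gene Xbp1 and the ER membrane gene Herpud1, and they stood at 55.6% to 77.2% of the WT mean. Trib3 was higher, at 175% of WT, and Atf4, Ddit3 and Canx did not pass. Among all 17474 genes tested, 31.1% were called, 15.9% as higher and 15.2% as lower, and the median log2 fold change was -0.000744, against -0.39 over the 10. Of the 10, 8 averaged over 1000 normalised counts in both groups and Ddit3 and Trib3 did not, and among the 3131 tested genes with a mean count of at least 1000 the called share was 44.5%, with 23.1% lower. The libraries of the 2 groups did not overlap for 7 of the 10, against 48.6% of all genes tested. Counts of the 10 genes together took 0.855% to 0.924% of each WT library and 0.602% to 0.611% of each Pbrm1 cKO library.

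**Figure D1:**
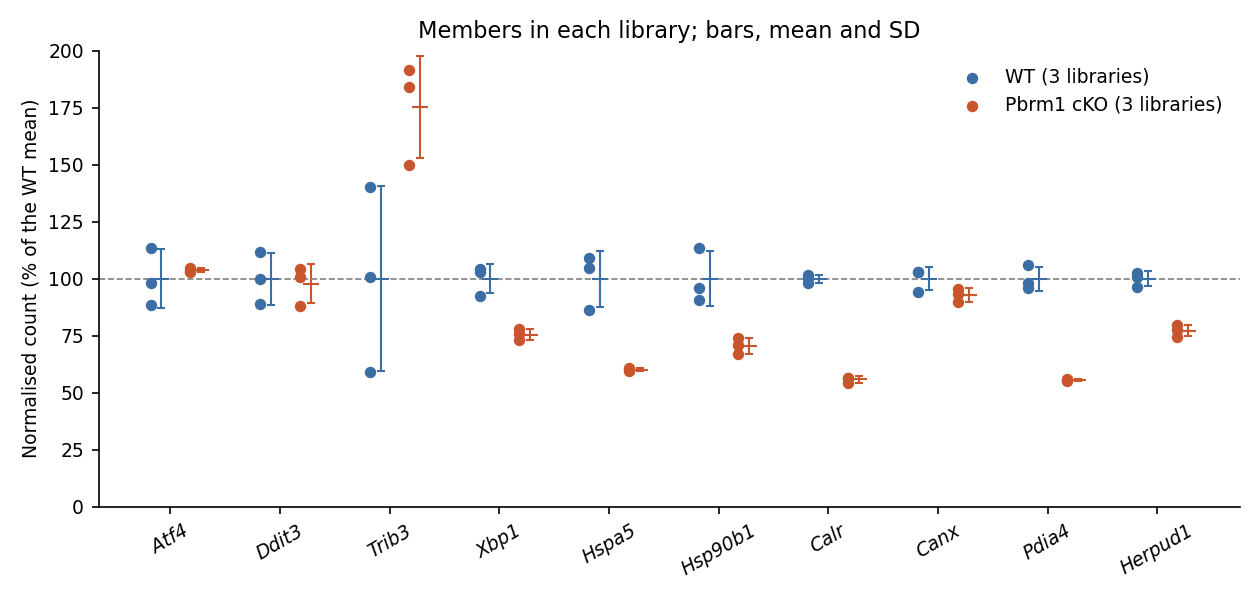
Normalised count of each of the 10 genes in each library as a percentage of the WT mean (y axis), with WT in blue and Pbrm1 cKO in orange. Points are libraries and the bars beside them the mean and SD of 3. Xbp1, Hspa5, Hsp90b1, Calr, Pdia4 and Herpud1 lie below every WT library in all 3 Pbrm1 cKO libraries, and Trib3 lies above.

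Hspa5, Calr and Pdia4 carried the largest reductions among the 10. Hspa5 (chr2:34771970-34777547, plus strand) encodes BiP, the HSP70 chaperone of the ER lumen that also holds the stress sensors inactive. Its normalised counts were 41330, 50300 and 52430 in WT and 28570, 28870 and 29190 in Pbrm1 cKO, or 48020 ± 5891 and 28880 ± 309 (SD, n = 3 each). The WT libraries spread widely, with replicate 1 the lowest, and all of them were above the narrow Pbrm1 cKO range. The log2 fold change was -0.73 (SE 0.11, DESeq2 adjusted p = 1.34e-10), and -0.83 without WT replicate 1.

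Calr (chr8:84841850-84846934, minus strand) encodes calreticulin, a soluble lectin chaperone that binds monoglucosylated glycoproteins and calcium. It had 29310, 28850 and 28320 normalised counts in WT against 16320, 16300 and 15610 in Pbrm1 cKO. Both groups were tight, with a coefficient of variation of 1.72% in WT and 2.49% in Pbrm1 cKO, and their ranges lay far apart. The log2 fold change was -0.84 (SE 0.07, DESeq2 adjusted p = 8.2e-30).

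Pdia4 (chr6:47796141-47813430, minus strand) encodes ERp72, a protein disulfide isomerase. Its normalised counts were 9048, 8378 and 8181 in WT and 4748, 4793 and 4690 in Pbrm1 cKO. It stood at 55.6% of the WT mean, close to Calr, and its log2 fold change was -0.85 (SE 0.08, DESeq2 adjusted p = 1.5e-23). Calr carries ERSE letters in its promoter window and Pdia4 does not. The Pdia4 window (chr6:47813463-47813762) lies wholly before the counted gene, so the bases nearest to the counted start were not searched. The end of this window was found in 0 Pdia4 transcripts.

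Hsp90b1 (chr10:86690209-86705509, minus strand) encodes GRP94, the HSP90 of the ER. It had 17120, 16240 and 20290 normalised counts in WT against 13220, 12670 and 11960 in Pbrm1 cKO. WT replicate 3 was the highest library, and the lowest WT library was still above the highest Pbrm1 cKO library. The log2 fold change was -0.50 (SE 0.11, DESeq2 adjusted p = 2.72e-05). A short same-strand gene model, Gm15344, lies inside it and drew 119 counts over all 6 libraries.

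Canx (chr11:50293961-50325673, minus strand) encodes calnexin, the membrane-bound lectin chaperone that works beside calreticulin on the same glycoproteins. Its normalised counts were 14610, 13390 and 14590 in WT and 13570, 13230 and 12750 in Pbrm1 cKO, and the groups overlapped. The log2 fold change was -0.11 (SE 0.08, 95% interval -0.27 to 0.05, DESeq2 adjusted p = 0.351), an interval that does not reach the reduction of Calr. Within each library, scaled to kilobases of exons, Calr stood at 3.27, 3.51 and 3.16 times Canx in WT and at 1.96, 2.01 and 2 times in Pbrm1 cKO. This ratio does not depend on library scaling, and the groups did not overlap. The pair was chosen after the values were seen, so no test is given. Both promoters hold ERSE letters.

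**Figure D2:**
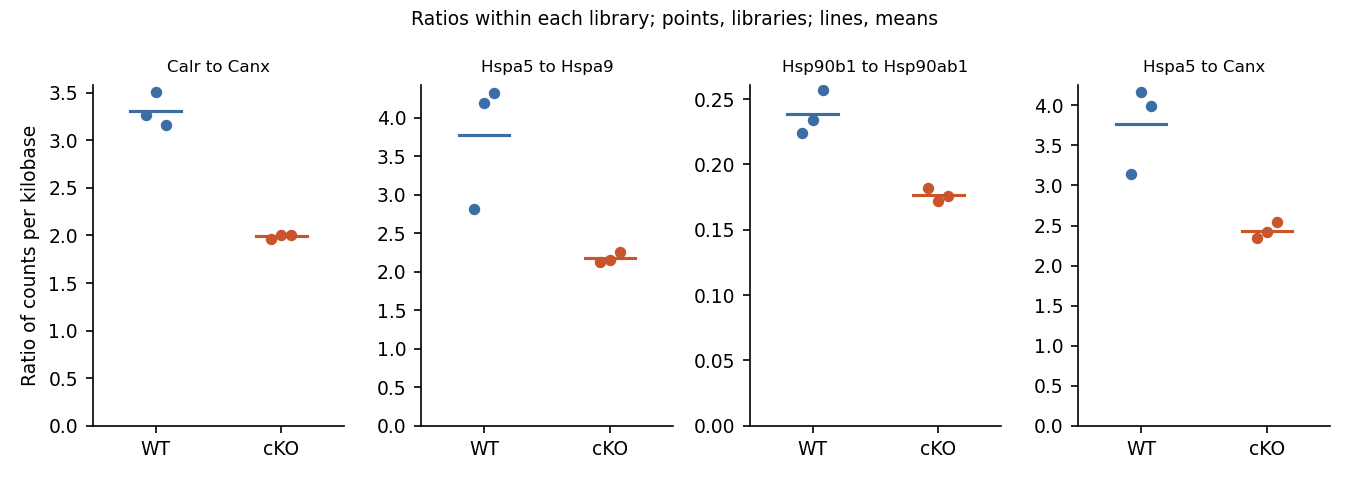
Ratio of 2 genes in counts per kilobase within each library (y axis), in WT (blue) and Pbrm1 cKO (orange). Points are libraries and lines the means of 3. Calr to Canx fell from 3.31 to 1.99, and the other ratios also fell without overlap.

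The other ratios, chosen in the same way, set an ER chaperone beside its relative in another compartment or beside Canx. Hspa5 stood at 2.81, 4.19 and 4.32 times Hspa9, the mitochondrial HSP70, in WT and at 2.12, 2.15 and 2.26 times in Pbrm1 cKO. Hsp90b1 stood at 0.224, 0.234 and 0.257 of Hsp90ab1, a cytosolic HSP90, in WT and at 0.182, 0.172 and 0.176 in Pbrm1 cKO. Hspa5 against Canx gave 3.14, 4.17 and 3.99 in WT and 2.34, 2.42 and 2.54 in Pbrm1 cKO. In each of the 3 pairs every Pbrm1 cKO library was below every WT library. Hspa9 (log2 fold change 0.03, DESeq2 adjusted p = 0.86), Trap1, the mitochondrial HSP90 (-0.02, adjusted p = 0.939), and Hsp90ab1 (-0.07, adjusted p = 0.613) did not pass the test. Hsp90aa1, the inducible cytosolic HSP90, was lower (-0.31, adjusted p = 0.00562), a call lost without Pbrm1 cKO replicate 1 (adjusted p = 0.0595) or 3 (0.0598).

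Hspa8, the constitutive cytosolic HSP70, was also lower, at 49.3% of WT (log2 fold change -1.02, DESeq2 adjusted p = 2.78e-33). Its count is uncertain, because the gene model Gm15459 is 99.7% identical to it over 1941 bases and drew 37014 counts of its own, with a log2 fold change of -0.02. Over the comparison lists, 10 of 21 cytosolic chaperone genes were lower and 2 higher, and 3 of 12 mitochondrial ones were lower and 1 higher. The shares called were 57.1% and 33.3%, against 31.1% of all genes tested, so that the mitochondrial share was near the background. Among tested genes with a mean count of at least 1000 the called share was 44.5%. Lower chaperone transcripts were found in the cytosolic list as well as in the ER lists. Without Pbrm1 cKO replicate 1 or 3, however, 5 of the 21 cytosolic genes were lower.

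The transcription factor genes and their targets did not move as a block. Xbp1 (chr11:5520659-5525893, plus strand) encodes the factor made active by IRE1 splicing. It had 3915, 3862 and 3470 normalised counts in WT against 2917, 2833 and 2735 in Pbrm1 cKO, a log2 fold change of -0.41 (SE 0.09, DESeq2 adjusted p = 5.99e-05). No WT library reached down to the Pbrm1 cKO range. The count sums spliced and unspliced transcripts.

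Herpud1 (chr8:94386438-94395377, plus strand) encodes a membrane protein of ER-associated degradation and is a common marker of ER stress. Its normalised counts were 2131, 2093 and 2002 in WT and 1652, 1607 and 1546 in Pbrm1 cKO. This was the smallest called reduction of the 10, to 77.2% of WT (log2 fold change -0.37, SE 0.09, DESeq2 adjusted p = 0.000138), with no overlap between groups.

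Atf4 (chr15:80255184-80257541, plus strand), the effector of the PERK branch and of the wider integrated stress response, had 8912, 7693 and 6920 normalised counts in WT against 8112, 8200 and 8072 in Pbrm1 cKO. All Pbrm1 cKO libraries lay within the WT range. The log2 fold change was 0.05 (SE 0.11, 95% interval -0.16 to 0.26, DESeq2 adjusted p = 0.784). ATF4 is controlled largely in translation, which these libraries do not measure.

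Ddit3 (chr10:127290774-127296288, plus strand) encodes CHOP, the pro-apoptotic factor downstream of ATF4. Its normalised counts were low at 230, 205 and 183 in WT and 182, 208 and 215 in Pbrm1 cKO, and the groups overlapped (log2 fold change -0.03, SE 0.17, 95% interval -0.36 to 0.30, DESeq2 adjusted p = 0.923). A second gene model of the same name, 105 bases long and on the same strand, lies within it and drew 0 counts. Reads that touch both models are left out by the counting, so the values of Ddit3 leave out that stretch in all 6 libraries.

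Trib3 (chr2:152337422-152344032, minus strand) encodes a pseudokinase induced by ATF4 and CHOP. It had 119, 49.9 and 85.4 normalised counts in WT against 156, 162 and 127 in Pbrm1 cKO. The WT libraries differed more among themselves than for any other of the 10 genes, with a coefficient of variation of 40.6%, and the highest of them was just under the lowest Pbrm1 cKO library. The log2 fold change was 0.81 (SE 0.29, DESeq2 adjusted p = 0.0197). The call was lost without WT replicate 2 (0.54, adjusted p = 0.117), WT replicate 3 (0.81, 0.0543), Pbrm1 cKO replicate 1 (0.77, 0.114) or Pbrm1 cKO replicate 2 (0.74, 0.141), and it was kept without WT replicate 1 (1.13, 0.000241).

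Normalised counts per kilobase of exons allow levels to be compared between genes. Hspa5 and Calr led in WT with normalised counts per kilobase of 11360 ± 1393 and 10010 ± 172, and their WT ranges overlapped (9773 to 12400 and 9834 to 10180). In Pbrm1 cKO they no longer overlapped, at 6757 to 6903 and 5422 to 5665. Below them came Hsp90b1 (4436 ± 528), Pdia4 (3558 ± 190), Atf4 (3326 ± 426) and Canx (3026 ± 149) in WT, of which Pdia4 overlapped Atf4 and Atf4 overlapped Canx. In Pbrm1 cKO the order of these 4 changed to Atf4 (3447 ± 27.7), Hsp90b1 (3129 ± 157), Canx (2809 ± 88.3) and Pdia4 (1977 ± 21.7), with no overlap between neighbours. Xbp1 (1154 ± 74.9 in WT, 871 ± 28.1 in Pbrm1 cKO) and Herpud1 (890 ± 28.5 and 687 ± 22.6) followed. Ddit3 (120 ± 13.8 and 118 ± 10.3) and Trib3 (39.8 ± 16.2 and 69.8 ± 8.92) were far lower. Hspa5 and Calr were above 99.8% of all tested genes in WT on this scale, and Trib3 was near the middle, above 49.9%.

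**Figure D3:**
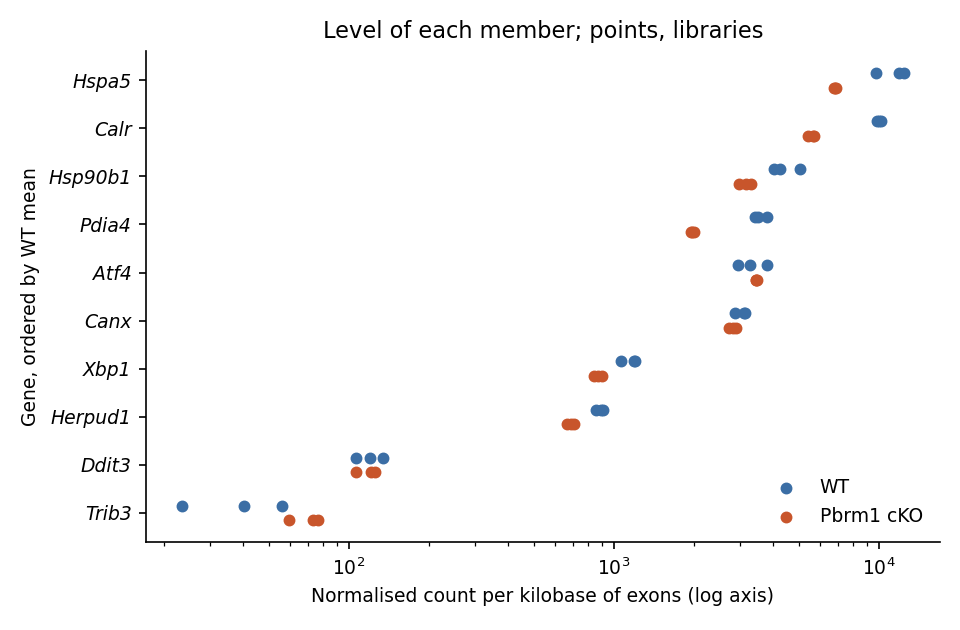
Normalised count per kilobase of exons of each gene in each library (log x axis), with genes ordered by WT mean and each point 1 library. WT is blue and Pbrm1 cKO orange. Hspa5 and Calr lead in both groups, while Pdia4 falls from above Atf4 in the WT means to below Canx in Pbrm1 cKO.

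The genes around these 10 were counted in 12 lists of the same pathways, 199 genes with counts of which 196 were tested. In Pbrm1 cKO 69 were lower, 28 higher and 99 did not pass, with a median log2 fold change of -0.14. The share called was 49.5%, against 31.1% of all genes tested and 44.5% of those with a mean of 1000 or more normalised counts. By direction 35.2% were lower, against 15.2% of all genes tested and 23.1% of the abundant ones, and 14.3% were higher, which is near the 15.9% of all genes. The lists are described in turn, and differences between lists were not tested.

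Of 12 genes in the list of BiP cofactors and the HSP70 cycle, 6 were lower and 1 was higher. Sdf2l1, a partner of the J protein Dnajb11, was at 45.2% of WT (log2 fold change -1.15, DESeq2 adjusted p = 4.87e-15), with 728, 816 and 857 normalised counts in WT against 320, 352 and 414 in Pbrm1 cKO. Manf, a secreted ER stress protein that binds BiP, was at 60.0% (-0.74, adjusted p = 2.69e-08). Hyou1, its nucleotide exchange factor (-0.50), Dnajb11 (-0.50), Dnajc10 (-0.51) and Creld2 (-0.39) were lower too, while Dnajc1, a membrane J protein, was higher (0.43, adjusted p = 0.000329).

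Among disulfide and proline isomerases 8 of 21 were lower and 1 was higher. Ero1lb, an oxidase of protein disulfide isomerases, was the most reduced (log2 fold change -1.34, DESeq2 adjusted p = 3.37e-05), at a low level of 84.4 ± 13.9 and 33.4 ± 4.4 normalised counts. Erp29 (-0.80), Pdia6 (-0.70) and the abundant P4hb (-0.53) were lower as well. Pdia3, the partner of calreticulin and calnexin, had 5632, 6277 and 11970 normalised counts in WT against 7204, 7307 and 6997 in Pbrm1 cKO. WT replicate 3 decided its direction, which was -0.15 with it (adjusted p = 0.807) and 0.26 without it (adjusted p = 0.00572). The secreted oxidase Qsox1 was higher (0.30, adjusted p = 0.00628), though not past the test without Pbrm1 cKO replicate 1 (0.24, adjusted p = 0.0764). In the glycoprotein folding list 3 of 8 were lower, with Lman1, a cargo receptor, at -0.58 and the lectin Mlec at -0.36, and the glucosidase subunit gene Ganab was higher (0.46, adjusted p = 0.000327).

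The oligosaccharyltransferase, which attaches N-glycans to entering chains, was lower in 10 of 12 genes and higher in 0. Rpn1 stood at 55.2% of WT (log2 fold change -0.86, DESeq2 adjusted p = 6.18e-20), close to Calr and Pdia4, with Ostc at -0.67. The translocon, signal recognition and signal peptidase genes were lower in 14 of 25 and higher in 0. Srp9 (-1.35, adjusted p = 4.66e-21) and Sec61b (-0.85, adjusted p = 1.19e-09) were the most reduced, while Sec61a1, the channel itself, did not pass (0.01, adjusted p = 0.939). The COPII list, for vesicles that leave the ER, was mixed, with 9 of 20 lower and 4 higher. Sec23a (-0.56) and Sec13 (-0.55) were lower, and Tmed10 (0.62) and Sec24a (0.48) were higher. The call of Tmed10 was lost without WT replicate 1 (0.47), WT replicate 2 (0.45) or Pbrm1 cKO replicate 1 (0.63), 2 (0.59) or 3 (0.66), and its value rose to 1.01 without WT replicate 3. The call of Sec24a was lost without Pbrm1 cKO replicate 1 (0.46) or 2 (0.46).

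Collagen-modifying ER enzymes were lower in 5 of 13 and higher in 1. Serpinh1, the collagen chaperone HSP47, fell from 60600 ± 2740 to 40640 ± 661 normalised counts (log2 fold change -0.58, DESeq2 adjusted p = 1.14e-12), and P3h3, a collagen prolyl hydroxylase, was at -0.70. Colgalt1, a collagen galactosyltransferase, was higher (0.42, adjusted p = 0.000825). Beside them the collagen genes of the stromal marker list, Col1a1 (-0.69) and Col1a2 (-0.93), were lower. ER-associated degradation, which clears misfolded chains and holds the relatives of Herpud1, was lower in 1 of 21 (Derl1, -0.37) and higher in 1 (Herpud2, 0.61), a called share of 9.52%. Herpud2 was not past the test without Pbrm1 cKO replicate 2 (0.56, adjusted p = 0.059). The count of this list depended on single libraries, with 3 lower and 3 higher without WT replicate 3. Without WT replicate 1 it was 3 lower and 1 higher.

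**Figure D4:**
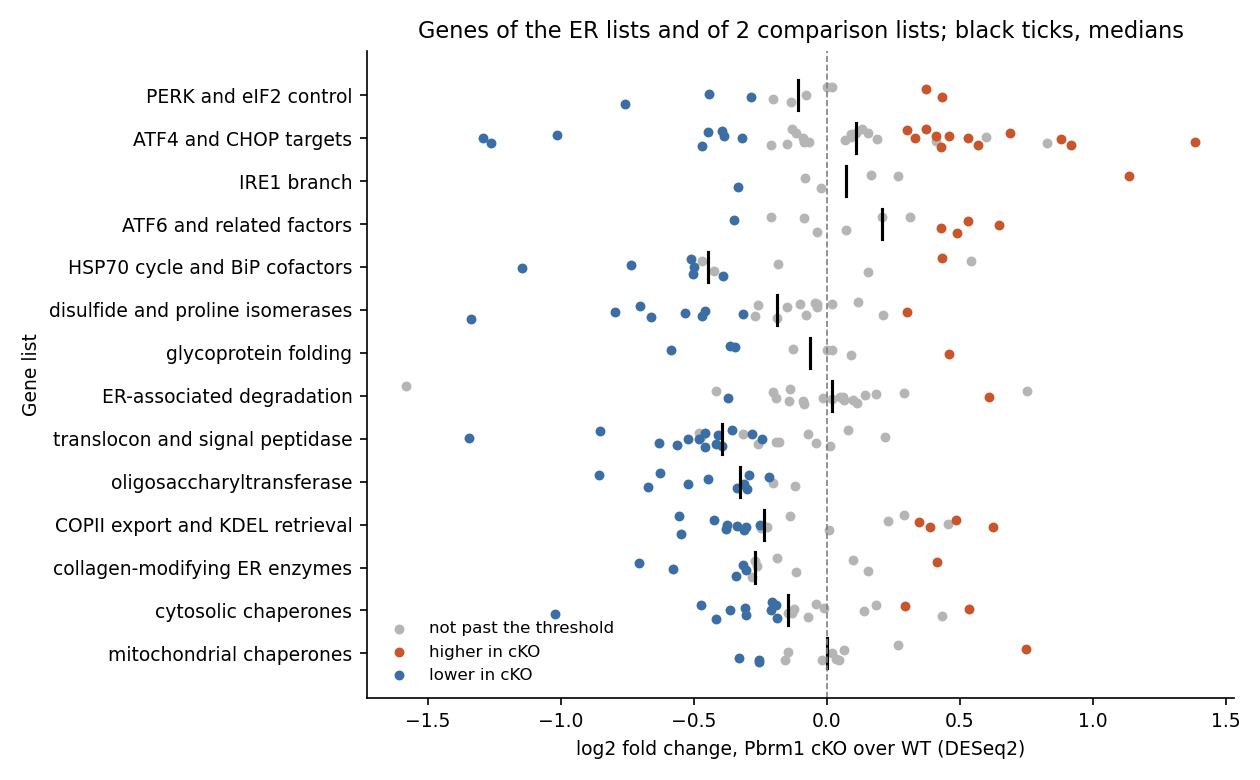
Log2 fold change of Pbrm1 cKO over WT (x axis) for each tested gene of the 12 ER lists and of 2 lists of chaperones elsewhere in the cell (y axis). Blue points are lower and orange points higher by DESeq2, grey points did not pass, and black ticks are medians. The oligosaccharyltransferase and translocon lists hold no orange point, and the ATF4 and CHOP targets spread to both sides.

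Of the 3 sensor genes 1 was higher and the other two did not pass the test. Ern1, which encodes IRE1, the enzyme that splices Xbp1, was at 220% of WT with 1029, 1068 and 1113 normalised counts in WT against 2353, 2360 and 2348 in Pbrm1 cKO (log2 fold change 1.14, DESeq2 adjusted p = 2.38e-36). It was higher in every Pbrm1 cKO library while Xbp1 and Hspa5 were lower. Eif2ak3 (PERK, -0.08, adjusted p = 0.72) and Atf6 (-0.09, adjusted p = 0.538) did not pass the test. The related factors Atf6b (0.65), Creb3l2 (0.53), Creb3l1 (0.49) and the protease Mbtps2 (0.43) were higher and Creb3 lower (-0.35), so that 4 of 11 genes of the ATF6 list were higher and 1 lower. Single libraries decided some of these calls. Creb3l1 was lost without WT replicate 1 (0.41), WT replicate 2 (0.38), Pbrm1 cKO replicate 1 (0.44) or Pbrm1 cKO replicate 2 (0.48), Mbtps2 without WT replicate 2 (0.42), Pbrm1 cKO replicate 1 (0.39) or Pbrm1 cKO replicate 2 (0.37), and Creb3 without Pbrm1 cKO replicate 2 (-0.33).

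In the PERK list 2 of 10 were higher and 3 lower. The higher pair, Ppp1r15a (GADD34, 0.43, DESeq2 adjusted p = 1.77e-05) and Ppp1r15b (CReP, 0.37, adjusted p = 0.000389), encodes the subunits that direct eIF2 dephosphorylation. Dnajc3, an ER co-chaperone also known as an inhibitor of eIF2 kinases, stood at 59.1% of WT (-0.76, adjusted p = 5.57e-17), next to Hspa5 in size of change, and Eif2b5 was also lower (-0.44). In the IRE1 list of 6 genes Ern1 was higher and Mapk8 (-0.33) lower. The call of Mapk8 was lost without WT replicate 2 (-0.29), Pbrm1 cKO replicate 2 (-0.35) or Pbrm1 cKO replicate 3 (-0.29).

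Targets of ATF4 and CHOP went both ways, with 12 of 37 higher and 8 lower and a median of 0.11. The split depended on single libraries. Without WT replicate 1 it was 18 higher and 5 lower, with a median of 0.26, and without any 1 Pbrm1 cKO library 4 were lower and 9 to 11 higher. WT replicate 1 stood apart in members of this list in both directions, at 2.21 times the mean of the other 2 WT libraries for Chac1, a glutathione-degrading enzyme, and 1.65 times for Asns, asparagine synthetase, but 0.679 times for Slc7a11. These counts by library were chosen after seeing the data. Atf3 (log2 fold change 1.38, DESeq2 adjusted p = 1.95e-18) and Ddit4 (0.92, adjusted p = 0.000291) rose most, and Stc2 (-1.29, adjusted p = 8.8e-14) and Aldh1l2 (-1.26, adjusted p = 3.81e-07) fell most. By function, 4 of 5 amino acid transporter genes were higher and 0 lower, namely Slc7a1 (0.69), Slc7a5 (0.57), Slc7a11 (0.53) and Slc3a2 (0.46). Of 6 serine and one-carbon enzyme genes 3 were lower, among them Phgdh (-1.01), and 1 was higher, and of 12 tRNA synthetase genes 3 were higher and 2 lower. These functional groups were drawn after the values were seen. The rises in this list accompanied those of the immediate early list, to which Atf3 also belongs. That list summed to 10950 to 11650 normalised counts in WT against 14720 to 15190 in Pbrm1 cKO, with 9 of 14 genes higher and 2 lower, and its part in the rise of Atf3 was not tested.

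Plasma cells depend on Xbp1 and are rich in these chaperones, so their markers were read beside the 10 genes. The immunoglobulin genes were higher in Pbrm1 cKO, with Igkc at 25.6, 56.6 and 29.2 normalised counts in WT against 1108, 1026 and 1191 in Pbrm1 cKO, and Jchain at 9.62, 14.4 and 11.9 against 383, 336 and 410. Of 11 tested genes of the 13 in this list 7 were higher and 1, Xbp1 itself, was lower. The summed count of the other 12 genes was 3083 to 3784 in WT and 6782 to 7118 in Pbrm1 cKO, or 6998 to 7647 and 9615 to 10040 with Xbp1 included, and Tnfrsf17 was at or near 0 in both. Igkc and Jchain made up a small part of the WT sum. Derl3, also in the list, had a log2 fold change of -1.58 and did not pass the test (DESeq2 adjusted p = 0.0671). Xbp1, Hspa5 and Hsp90b1 were lower while Igkc and Jchain were higher, and the part of such cells in their values was not tested.

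The promoter letters were then set beside the fold changes of all genes that carry them. Of 37 genes with ERSE letters 21 were tested, and 9 were lower and 1 higher, with a median log2 fold change of -0.27. Without the 4 of the 10 genes described here, 6 of 17 were lower (35.3%, against 15.2% of all genes tested and 23.1% of those with a mean of 1000 or more normalised counts) and 1 was higher, with a median of -0.26. The 6 were Ero1lb, Dnajc3, Pdia6, Creld2, Zfp57 and Ptgdr2, of which the first 4 act in the ER. Those 4, with Derl3 and Syvn1, which did not pass, were already counted in the ER lists. The share is therefore not separate from that of the lists. Outside them the lower genes with ERSE letters were Zfp57 and Ptgdr2. The call of Zfp57 (-0.43) was lost without WT replicate 1 (-0.32), WT replicate 2 (-0.42), Pbrm1 cKO replicate 1 (-0.34) or Pbrm1 cKO replicate 2 (-0.46). Canx, Syvn1, an ER ubiquitin ligase (0.02), and Alg12, a mannosyltransferase (0.05), carry the same letters and did not pass the test.

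Of 10 tested genes with ERSE-II letters 5 were lower and 1 was higher. Without Herpud1 4 of 9 were lower (44.4%, against 15.2% of all genes tested and 23.1% of the abundant ones) and 1 higher (11.1%). The 4 were Dnajb11, Krtcap2, a subunit of the oligosaccharyltransferase (-0.63), Nucb1 (-0.28) and Lgalsl (-0.91). Dnajb11 and Krtcap2 were already counted in the ER lists. Nucb1 was not past the test without Pbrm1 cKO replicate 2 (-0.29) or 3 (-0.25). UPRE and CARE letters are more common and short. With UPRE letters 26 of 116 tested genes were lower (22.4%) and 20 higher (17.2%). With CARE letters 56 of 344 were lower (16.3%) and 88 higher (25.6%). Of all genes tested 15.2% were lower and 15.9% higher, and of the abundant ones 23.1% and 21.4%. The UPRE shares and the lower share of CARE lay between these backgrounds. These genes share no test, and the counts are descriptions.

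**Figure D5:**
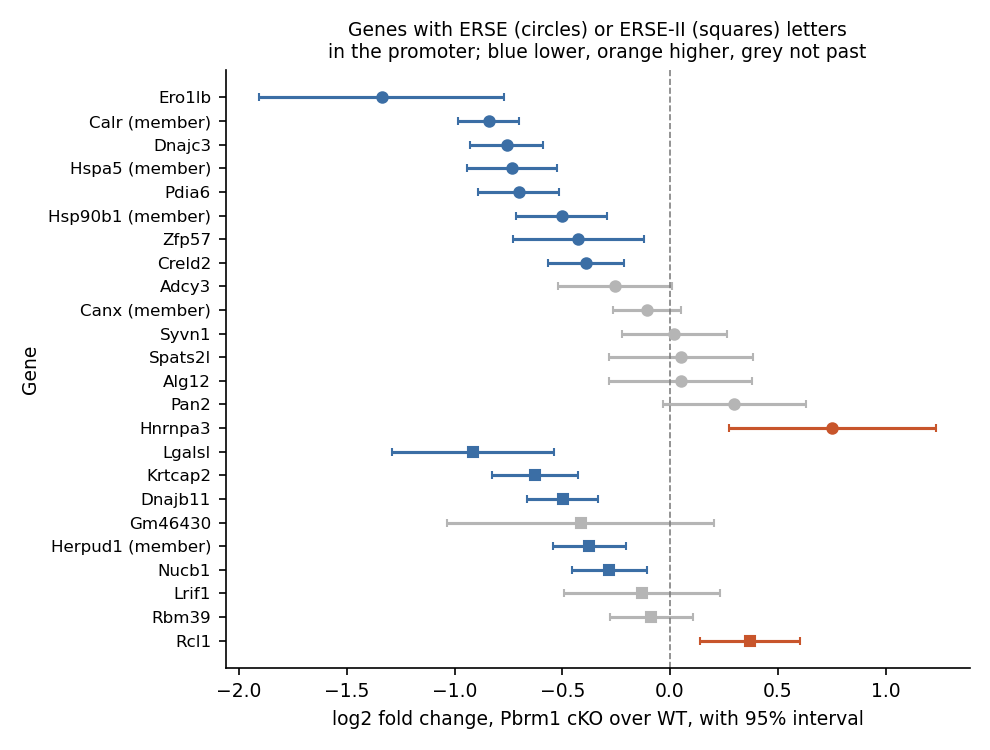
Log2 fold change of Pbrm1 cKO over WT with its 95% interval (x axis) for tested genes with ERSE letters (circles) or ERSE-II letters (squares) in the promoter window, those with an SE under 0.5. Blue is lower, orange higher and grey not past the test by DESeq2. Calr, Hspa5, Hsp90b1 and Herpud1 lie below 0 with intervals that exclude it, and that of Canx includes 0.

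Across the 6 libraries the genes most like Hspa5 by Pearson correlation of normalised counts were Far1 (r = 0.9993), Tmem33 (0.9987) and Ssr3 (0.9982), among 9236 protein-coding genes with a mean of at least 100. These points share genotype and library, and 1115 genes had r over 0.9, so the likeness is a description. Ssr3, a subunit of the translocon-associated complex, had 20020 ± 1929 normalised counts in WT against 13950 ± 59.3 in Pbrm1 cKO, a narrow cKO range like that of Hspa5. For Atf4 the most like were Surf1 (0.9971), Irak1 (0.9907) and Vipas39 (0.9886), and 276 genes had r over 0.9.

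The separate libraries of Pbrm1 cKO were closer to each other than those of WT. The coefficient of variation of Hspa5 was 12.3% in WT and 1.07% in Pbrm1 cKO, and that of Atf4 was 12.8% and 0.803%. Counts of paired libraries within a group differed by more than counting noise, so each was kept as a library of its own. The median chi-square was 1.63 to 3.01 times noise in Pbrm1 cKO and 4.92 to 11.2 times in WT. This difference cannot show whether the cells of each library were prepared apart. The study calls the 3 libraries of a group biological replicates, and the labels do not say which animals went into each. The p-values therefore measure the spread between these libraries.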

How the data were processed

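RNA-seq of primary uterine stromal cells gave 3 WT and 3 Pbrm1 cKO libraries, grouped by the labels. The authors trimmed reads with cutadapt, mapped them with HISAT2 to GRCm38.p5 and counted them with featureCounts 1.6.4 in the reverse-stranded mode on GENCODE M18, and they deposited raw counts per gene. Reads that map to several places or touch several genes on 1 strand are left out by that program's defaults, which lowers genes with near-identical copies. The labels describe a total RNA kit and the study mRNA purification, so the RNA classes captured are not settled.

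The 10 genes, the pathway and marker lists and the motifs were chosen with earlier results of these data known. Counts were fitted in R 4.3.3 with DESeq2 1.42.0 (Wald test, all 6 libraries, no covariates, Benjamini-Hochberg adjustment over 17474 genes, threshold 0.05). Log2 fold changes are unshrunken. Values are size-factor normalised counts, as mean ± SD where a ± stands, and counts per kilobase divide them by the exon length in the table. A list is described by its calls and median, with no test of the list. Genes named were the 10, Pbrm1, up to 2 most raised and 2 most reduced called genes per pathway list with a mean of at least 50, 5 chaperones of other compartments, markers at or near 0 and the 3 genes most like Hspa5 and Atf4. Other names were chosen after their values were seen. A count of 0 allows 3 counts, or 0.164 to 0.226 CPM (counts scaled to the library total), and markers at or near 0 had at most 3 counts in every library. These limits cover counting error only. Near-identical copies were searched in GENCODE M21 transcripts at 98% identity over at least 50 bases. Promoter sequences are from RefSeq (GRCm38.p6), and 240 of 32851 windows were matched to the table by an older symbol. Scripts were tested on simulated data. Alternatives used edgeR 4.0.16 and limma 3.58.1, other scalings and filters, a replicate block and each library left out.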

Additional observations from a re-analysis of the deposited data

How the results depend on the processing

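The calls of Calr and Pdia4 (lower) and of Atf4, Ddit3 and Canx (not past the test) stayed on the same side of the threshold in all 16 alternatives. Xbp1, Hspa5, Hsp90b1 and Herpud1 were lower in 15 of 16. The exception was a test against a log2 change of 0.58 (adjusted p under 0.1), which asks for a larger change and left Xbp1 (-0.41), Hspa5 (-0.73), Hsp90b1 (-0.50), Herpud1 (-0.37) and Trib3 (0.81) uncalled. Under it 2 of the 10 genes were lower and 0 higher, and 6 of 196 pathway genes were lower (3.06%) and 2 higher (1.02%), beside 2.94% lower and 3.65% higher of 19134 genes in all, so that the lower share of the pathway was near the background. Leaving out 1 library at a time, the log2 fold change of Trib3 ran from 0.54 to 1.13, so that 0 to 1 of the 10 genes was called higher. Lower pathway genes then numbered 48 to 76 and higher ones 19 to 35, beside 1790 to 2660 lower and 1923 to 2915 higher among all genes. By list, lower genes ran from 6 to 11 of 12 for the oligosaccharyltransferase, 2 to 7 of 13 for the collagen-modifying enzymes, 5 to 10 of 21 for the cytosolic and 0 to 3 of 12 for the mitochondrial chaperones, a count chosen after seeing the data. Pdia3 ran from -0.35 to 0.26 and turned higher without WT replicate 3. The median log2 fold change over all genes averaging 10 or more counts lay between -0.01 and 0.02 in every setting. Same-numbered WT and Pbrm1 cKO libraries did not deviate together (r = 0.112, -0.0458 and 0.00217), so they share only a number. With a replicate block 6 of the 10 genes were lower and 1 higher, as without it, Trib3 was at 0.87, and 59 pathway genes were lower and 28 higher. The block ended the calls of Mapk8 (-0.33), Mbtps2 (0.42), Nucb1 (-0.28) and Zfp57 (-0.42). Removing the trend with gene length ended those of Qsox1 (0.19), Sec24a (0.33), Mbtps2 (0.28) and Slc7a11 (0.34) and made Atf6 lower (-0.22), and edgeR ended that of Tmed10 (0.63). Among the 10 genes, Trib3 (45 to 203 raw counts) and Ddit3 (169 to 260) had the fewest counts.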
